A study of Mus musculus with 24 samples.

Results

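Transcripts of 9 adhesion genes were followed in CD4+ T cells: the integrin subunits Itgal, Itga4, Itgae, Itgb1, Itgb2 and Itgb7, the integrin ligand Icam1, the hyaluronan receptor Cd44 and the selectin ligand Selplg. They were taken by name from a table of 22009 named genes, and all 9 were found. The cells came from spleens of adult WT C57BL/6 mice and were purified as CD4+ by removing other cells with magnetic beads. The libraries were 2 of resting cells, 18 of cultures under Th0, Th1 or Th2 conditions, 1 per condition at 4, 8, 12, 16, 20 and 24 h, and 4 of cells given actinomycin, a blocker of transcription, after 16 h of stimulation and taken 0, 1, 2 or 4 h later. Every culture received anti-CD3 and anti-CD28. Th0 cultures received nothing else, Th1 cultures also anti-IL-4 and IL-12, while for Th2 cultures IL-4 was added with antibodies to IL-12 and IFN-γ. The skewing condition of the actinomycin libraries is not given in the labels. Cells of several mice were pooled before culture, so the cultures are series from 1 pool and not separate animals, and the p-values below measure only the spread between these libraries.

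Integrins are pairs of an α and a β chain, and a chain reaches the cell surface only with a partner. In T cells, αL pairs with β2 to form LFA-1, which binds ICAM-1 and arrests cells on endothelium and antigen-presenting cells. The α4 chain pairs with β1 to form VLA-4, which binds VCAM-1 and fibronectin, or with β7 to form the gut-homing receptor for MAdCAM-1, and αE pairs with β7 to form CD103, which binds E-cadherin on epithelium. CD44 binds hyaluronan and is a common marker of T cells that have met antigen, and PSGL-1, the product of Selplg, binds selectins.

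The resting libraries had 19759081 and 23541816 mapped reads, the cultures between 17512385 and 33017133 and the actinomycin libraries between 18052931 and 25735543, as recovered from the values. The summed level of 7 T cell markers was 1843 to 1859 RPKM (reads per kilobase of transcript, scaled to the mapped reads of the library) at rest and 1147 to 1564 RPKM in the cultures. The resting libraries also held transcripts of other cells: 9 macrophage markers, Vcam1 among them, summed to 552 to 573 RPKM at rest, 31.3 to 59.0 RPKM at 4 h and 5.11 to 6.68 RPKM at 24 h, when 7 of the 9 were under 1 RPKM. Red-cell transcripts (7 genes) summed to 38837 to 42382 RPKM at rest, 29387 to 47109 RPKM at 4 h and 142 to 212 RPKM at 24 h, and 7 B cell markers to 67.6 to 77.4 RPKM at rest and 9.46 to 18.9 RPKM at 24 h. NK cell markers (4 genes) summed to 86.2 to 88.3 RPKM at rest and 10.2 to 16.9 RPKM at 24 h. Macrophages, B cells and NK cells also express Itgb2, Itga4, Cd44 and other genes of the set, so their transcripts moved with every comparison with resting cells given here, and their part in those results was not tested. Fewer cells of a type and less RNA per cell cannot be told apart in bulk libraries. The resting libraries carry another tag in their titles than the cultures, so a difference of preparation cannot be told apart from activation.

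On GRCm38 (GENCODE annotation vM21) the genes lie at chr9:21015985-21028817 (Icam1, plus strand), chr7:127296260-127335138 (Itgal, plus strand), chr2:79255426-79333123 (Itga4, plus strand), chr11:73090583-73147446 (Itgae, plus strand), chr8:128685654-128733200 (Itgb1, plus strand), chr10:77530252-77565708 (Itgb2, plus strand), chr15:102215995-102231944 (Itgb7, minus strand), chr2:102811141-102901665 (Cd44, minus strand), chr5:113818536-113832644 (Selplg, minus strand). All are protein coding, and values were given per gene, not per exon or transcript. Of the 50-base windows of their transcripts, 2.27% in Icam1, 1.27% in Selplg, 1.05% in Itgb2, 0.0711% in Itga4 and none in the other 5 genes also occurred in transcripts of other genes. Exons of Itga4 overlap those of Cerkl, and exons of Icam1 those of Gm47079, on the opposite strand. Whether the counting used strand is not given in the sources used here, so reads of these pairs may be mixed.

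The window before the start of each gene is shown for the 4 genes of the set that differed most between Th2 and Th0 cultures and had an entry in the RefSeq promoter table (GRCm38.p6), which held 5 of the 9. Each line holds 250 bases, 5′ to 3′ on the strand of the gene, ending at the base before the start in that table. For Icam1 and Itgb7 this start differs from the GENCODE one given above, and distances below run from the start in that table. The windows are Icam1 at chr9:21015690-21015939 (plus strand), Cd44 at chr2:102901666-102901915 (minus strand), Itga4 at chr2:79255176-79255425 (plus strand) and Itgb7 at chr15:102231936-102232185 (minus strand). Capitals mark matches, on either strand, to any of 7 motifs: TTCNNNGAA (STAT sites of the GAS type), TTC and GAA with 4 bases between them (the spacing bound by STAT6), the core of the interferon response element, GGANNTTCC (NF-κB), TGANTCA (AP-1), TGTTTAC (FOXO) and GGGCGG (Sp1).
Icam1: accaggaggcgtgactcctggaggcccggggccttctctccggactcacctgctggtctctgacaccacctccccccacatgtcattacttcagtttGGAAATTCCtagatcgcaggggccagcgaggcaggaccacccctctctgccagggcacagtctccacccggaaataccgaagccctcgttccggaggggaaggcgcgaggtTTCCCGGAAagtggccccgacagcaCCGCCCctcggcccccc
Cd44: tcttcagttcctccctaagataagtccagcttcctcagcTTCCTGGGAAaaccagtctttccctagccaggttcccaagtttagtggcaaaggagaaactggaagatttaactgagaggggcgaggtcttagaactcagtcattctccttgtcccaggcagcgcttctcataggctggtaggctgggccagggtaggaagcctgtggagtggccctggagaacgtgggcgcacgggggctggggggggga
Itga4: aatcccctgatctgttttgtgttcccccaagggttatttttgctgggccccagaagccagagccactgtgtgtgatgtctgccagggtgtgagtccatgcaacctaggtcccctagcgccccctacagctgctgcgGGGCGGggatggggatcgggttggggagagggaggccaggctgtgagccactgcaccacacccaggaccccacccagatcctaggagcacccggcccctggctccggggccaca
Itgb7: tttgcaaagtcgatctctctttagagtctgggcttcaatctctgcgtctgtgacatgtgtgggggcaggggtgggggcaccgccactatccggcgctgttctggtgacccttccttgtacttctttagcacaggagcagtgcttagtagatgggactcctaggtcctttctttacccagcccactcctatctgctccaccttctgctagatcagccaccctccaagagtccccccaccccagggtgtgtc
Icam1 had the GAS-type match 42 to 34 bases before its start, the NF-κB match from 153 to 145 and an Sp1 match from 17 to 12. Over all 32851 windows of that length in the table, 7.02% held the GAS-type motif, 3.59% the NF-κB motif and 32.7% the Sp1 motif. Cd44 held 1 match, to the motif with the STAT6 spacing, 211 to 202 bases before its start, a motif found in 5.85% of windows. Itga4 held 1 Sp1 match, 114 to 109 bases before its start, and the window of Itgb7 held none of the 7. The other motifs, without a match in these windows, were found in 2.98% (interferon response element core), 6.75% (AP-1) and 3.17% (FOXO) of all windows. The matches describe letters in these windows and were not tested as binding sites.

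At rest, the levels per kilobase fell into 6 steps, which rest on gene lengths that could be recovered for Icam1 and Selplg alone. Itgb7 (223 and 231 RPKM) and Itgb2 (223 and 229 RPKM) were highest and overlapped, followed by Selplg (145 and 160 RPKM) and Itgal (142 and 151 RPKM), which also overlapped. Itga4 (109 and 105 RPKM) and Itgb1 (107 and 105 RPKM) overlapped at the next step. Cd44 had 44.9 and 44.7 RPKM, Icam1 17.1 and 18.1 RPKM and Itgae 3.58 and 3.75 RPKM. By 24 h in Th2 the order was another one: Itgal (117 RPKM), Itgb2 (112 RPKM), Itgb1 (99.4 RPKM) and Cd44 (93.1 RPKM) led, Selplg had 49.99 RPKM, and Itgb7 (16.9 RPKM), Icam1 (13.7 RPKM), Itga4 (11.6 RPKM) and Itgae (0.662 RPKM) were lowest.

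**Figure D1:**
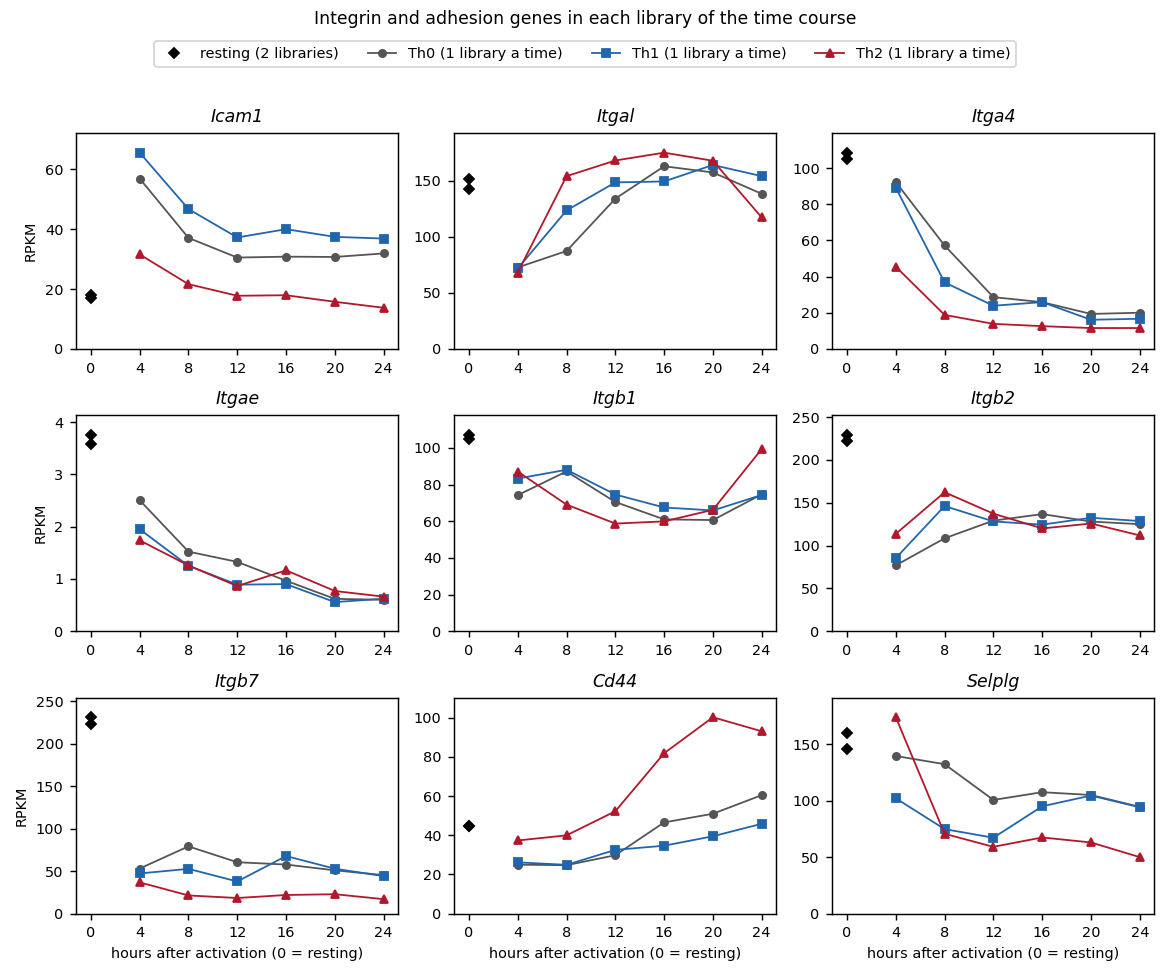
RPKM of the 9 genes (vertical axes, each from 0) against hours after activation, with the 2 resting libraries as diamonds at 0 and 1 library for each condition and time. Itga4, Itgae, Itgb1, Itgb2 and Itgb7 lie below both resting libraries in all 18 cultures, as do 19.4% of all genes tested. Th2 is the lowest condition at each time for Icam1, Itga4 and Itgb7, and Cd44 is highest in Th2 at each time.

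To see which of the genes changed on activation, the 3 cultures of each time point were compared with the resting libraries on log2(RPKM + 0.5) with limma, so that differences between skewing conditions are part of the spread. A gene was called where its change reached 2-fold and its Benjamini-Hochberg adjusted p was under 0.05, among 10897 genes whose mean was 1 RPKM or more. Changes on this scale understate those of low genes such as Itgae. At 4 h, 7 of the 9 genes were lower in all 3 cultures than in both resting libraries (33.9% of all genes tested) and at 24 h 6 (41.9%). At 4 h, Icam1 was called higher and Itgb7, Itgb2 and Itgal lower, 4 of 9 genes against 10.6% of all genes tested (2.61% higher and 7.97% lower). From 8 h to 24 h the genes called were Itgb7, Itga4 and Itgae, each lower at all of these time points, joined at 12 h by Selplg. That is 3 of 9 lower at 8, 16, 20 and 24 h and 4 of 9 at 12 h, where 12.5% (8 h), 16.4% (12 h), 14.5% (16 h), 16.1% (20 h) and 17.4% (24 h) of all genes tested were called lower, and none of the 9 was called higher from 8 h on. The median log2 change of the 9 genes was -0.62 at 4 h and -0.89 at 24 h, beside -0.04 and -0.04 over all genes tested.

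Itgb7 was called lower at every time point. From 223 and 231 RPKM at rest, it had 53.0, 47.2 and 36.7 RPKM in Th0, Th1 and Th2 at 4 h. The values in the same order were 45.2, 44.1 and 16.9 RPKM by 24 h. All 18 cultures were below both resting libraries, which held for 19.4% of all genes tested. The log2 change of Itgb7 was -2.32 at 4 h (standard error, SE, 0.60, limma adjusted p = 0.00713) and -2.79 at 24 h (SE 0.60, limma adjusted p = 0.000689). The 4 h call was lost without resting replicate 2 (adjusted p = 0.0544) and without the Th1 cultures (adjusted p = 0.053), with changes of -2.29 and -2.35, and the alternatives gave limma adjusted p-values from 2.24e-05 to 0.0544.

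Itga4, the partner of β1 and β7, fell more slowly. It had 108.5 and 105 RPKM at rest, and at 4 h 92.2, 89.1 and 45.5 RPKM in Th0, Th1 and Th2. At 8 h the values were 57.2, 36.8 and 18.8 RPKM, and at 24 h 20.0, 16.7 and 11.6 RPKM. Th2 was thus at 4 h already at a level that Th0 and Th1 passed between 8 and 12 h, or between 4 and 8 h. The log2 change of Itga4 against rest was -0.57 at 4 h (limma adjusted p = 0.353), -1.63 at 8 h (SE 0.44, limma adjusted p = 0.0054) and -2.73 at 24 h (SE 0.44, limma adjusted p = 4.97e-05). Between 4 and 24 h, compared over the cultures alone, Itga4 fell by 2.16 on the log2 scale (SE 0.14, limma adjusted p = 4.33e-09).

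Itgae, the αE chain of CD103, was low throughout. It had 3.58 and 3.75 RPKM at rest, 1.74 to 2.50 RPKM at 4 h and 0.602 to 0.662 RPKM at 24 h. The 3 conditions lay close together at 24 h, all far below rest, and the log2 change of Itgae was -1.88 (SE 0.17, limma adjusted p = 1.08e-07). Under quantile normalization the changes of Itgae at 8, 12 and 16 h were -0.69, -0.81 and -0.85, which is under 2-fold. In the actinomycin start library it had 0.375 RPKM.

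The chains of LFA-1 differed from each other in their course. Itgal fell at 4 h to 72.6, 71.7 and 68.1 RPKM in Th0, Th1 and Th2, from 142 and 151 RPKM at rest, a log2 change of -1.05 (SE 0.17, limma adjusted p = 0.000241). With median-of-ratios scaling this change of Itgal was -0.97 and with upper-quartile scaling -0.99, both under 2-fold. At 8 h it had 87.3, 123 and 154 RPKM in Th0, Th1 and Th2, and at 20 h all 3 cultures (157 to 168 RPKM) were above both resting libraries, as were 41% of all genes tested at that time, although with quantile normalization the mean change of Itgal at 20 h was -0.17. At 24 h Itgal had 138, 154 and 117 RPKM, a log2 change of -0.11 against rest that did not pass the test (limma adjusted p = 0.581) and was 0.03 with median-of-ratios scaling.

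Itgb2, the β chain shared with the leukocyte integrins of myeloid cells, had 223 and 229 RPKM at rest. At 4 h it had 76.9, 85.4 and 114 RPKM in Th0, Th1 and Th2, a log2 change of -1.31 (SE 0.16, limma adjusted p = 1.12e-05). From 8 h on it stayed between 108.5 and 162 RPKM, below both resting libraries in every culture. Its log2 change at 24 h was -0.89 (SE 0.16, limma adjusted p = 0.000127), under 2-fold, and -1.09 under quantile normalization. The macrophage markers summed to 552 to 573 RPKM at rest, 31.3 to 59.0 RPKM at 4 h and 5.11 to 6.68 RPKM at 24 h. Their part in the change of Itgb2 was not tested.

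Itgb1 had smaller mean changes against rest than the other β chains of the set at every time point. Its level was 107 and 105 RPKM at rest, and in the cultures it ran from 58.7 (Th2, 12 h) to 99.4 RPKM (Th2, 24 h). All 18 cultures were below both resting libraries, as for Itga4, Itgae, Itgb2 and Itgb7. The largest mean change was -0.75 at 16 h (SE 0.14, limma adjusted p = 0.000306), and none reached 2-fold.

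Icam1, the ligand of LFA-1, was the gene of the set that rose at 4 h. Its values of 17.1 RPKM (from 860 reads, with 15.6 to 18.8 RPKM as the exact 95% Poisson limits) and 18.1 RPKM (1085 reads, 16.7 to 19.7) at rest became 56.9 RPKM in Th0 (3519 reads, 54.3 to 59.6), 65.5 RPKM in Th1 (from 3715 reads, 62.6 to 68.6) and, in Th2, 31.5 RPKM (from 1574 reads, 29.4 to 33.8). The intervals cover counting error only and count both reads of a pair as 1 fragment. All 3 cultures were above both resting libraries, as were 23.9% of all genes tested at 4 h. The log2 change of Icam1 was 1.45 (SE 0.48, limma adjusted p = 0.0278). This call was lost without either resting library (adjusted p = 0.136 and 0.112), without the Th0 cultures (0.128) and without the Th1 cultures (0.104), and the alternatives gave limma adjusted p-values from 1.94e-05 to 0.136. After 4 h Icam1 declined: at 24 h it had 31.9 RPKM in Th0 (2173 reads, 30.0 to 33.8), 36.9 RPKM in Th1 (from 2589 reads, 34.9 to 38.9) and, in Th2, 13.7 RPKM (from 893 reads, 12.5 to 15.1). Th0 and Th1 stayed above both resting libraries at every time point, whereas Th2 was below the lower resting library at 20 h (15.7 RPKM) and 24 h. Its decline from 4 to 24 h, over the cultures alone, was 0.94 on the log2 scale, just under 2-fold, and that fall of Icam1 passed the p alone (-0.94, limma adjusted p = 3.8e-07).

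Cd44 had 44.9 and 44.7 RPKM at rest and was lower in all 3 cultures at 4 h, with 24.96, 26.1 and 37.3 RPKM in Th0, Th1 and Th2. It then rose in each condition, to 60.4 RPKM in Th0 and 45.8 RPKM in Th1 at 24 h, and to 100.2 RPKM at 20 h and 93.1 RPKM at 24 h in Th2. Between 4 and 24 h the log2 change of Cd44 was 1.12 (SE 0.14, limma adjusted p = 3.3e-06), where 13.3% of all genes tested were called higher and 13% lower. Cd44 was the gene of the set called higher there, and Itga4 and Itgae those called lower. The change of Itgae there was -1.17, and it was under 2-fold with a pseudocount of 1 RPKM (-0.90) and with quantile normalization (-0.85). Against rest, the change of Cd44 was -0.62 at 4 h (limma adjusted p = 0.261) and 0.50 at 24 h (limma adjusted p = 0.281), with the spread between conditions in the fit. At 24 h all 3 cultures were above both resting libraries, as were 38.7% of all genes tested. The sources conflict on the starting cells: the labels and the legend for these data call them purified CD4+, while the RNA sequencing methods call them naive, and naive cells were sorted with stains that include CD44.

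Selplg had 145 RPKM (7481 reads) and 160 RPKM (9836 reads) at rest. At 4 h it had 140, 102 and 174 RPKM in Th0, Th1 and Th2, so that the highest condition, Th2, lay above and the other conditions below both resting libraries. At 8 h Th2 had dropped to 70.7 RPKM, beside 132 RPKM in Th0 and 74.8 RPKM in Th1. At 24 h it had 94.5 RPKM in Th0 (from 6602 reads, with exact 95% Poisson limits of 91.3 to 97.8), 94.2 RPKM in Th1 (from 6784 reads, 91.0 to 97.4) and, in Th2, 49.99 RPKM (from 3330 reads, 47.6 to 52.5). The log2 change of Selplg was -1.05 at 12 h (SE 0.34, limma adjusted p = 0.0144), called lower, and -1.0 at 24 h (limma adjusted p = 0.0177), just under 2-fold. The 12 h call was lost without resting replicate 2 (adjusted p = 0.0831) and without the Th1 cultures (0.0697), and the change was under 2-fold with median-of-ratios scaling (-0.92) and when Th2 was left out (-0.89). For Selplg at 12 h the alternatives gave limma adjusted p-values from 0.0037 to 0.0831.

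To ask which of the genes depended on skewing, the 18 cultures were compared by condition in a fit that also held their time points, among 10737 genes. Against Th0, Th2 cultures had less Itgb7 and Itga4, called at 2-fold, and less Icam1 and Selplg and more Cd44 at an adjusted p under 0.05 but under 2-fold. Thus 2 of 9 genes were called for Th2 against Th0, where 2.01% of all genes tested were, and 5 of 9 passed the p alone, as did 29.6% of all genes. For Th2 against Th1, 2 of 9 were called, Icam1 and Itgb7, beside 1.96% of all genes, and Itga4 and Cd44 passed the p alone, so that 4 of 9 stood beside 12.2% of all genes. For Th1 against Th0 none of the 9 was called by limma, beside 0.494% of all genes tested. Icam1 passed the p alone, as did 2.27% of all genes tested, and Itga4 did not (limma adjusted p = 0.246). The median log2 difference of the 9 genes was -0.10 between Th2 and Th0, -0.06 between Th2 and Th1 and -0.16 between Th1 and Th0, with 0.00, 0.02 and -0.01 over all genes tested. The comparisons with Th2 share its cultures. Markers of other cells also differed between conditions. The 4 NK cell markers summed to 11.3 to 47.5 RPKM in Th2, 16.9 to 69.1 RPKM in Th1 and 10.2 to 49.8 RPKM in Th0, and 1 of them, Ncr1, was called lower in Th2 than in Th1. Their median difference on the log2 scale was -0.87 for Th2 against Th1 and 0.05 for Th2 against Th0. The B cell markers summed to 18.6 to 57.7 RPKM in Th2, 9.46 to 37.3 RPKM in Th1 and 13.9 to 45.6 RPKM in Th0, and of 5 tested 1 was called higher in Th2 than in Th1 (Cd79b), with a median of 0.25. Their part in the differences between conditions was not tested.

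**Figure D2:**
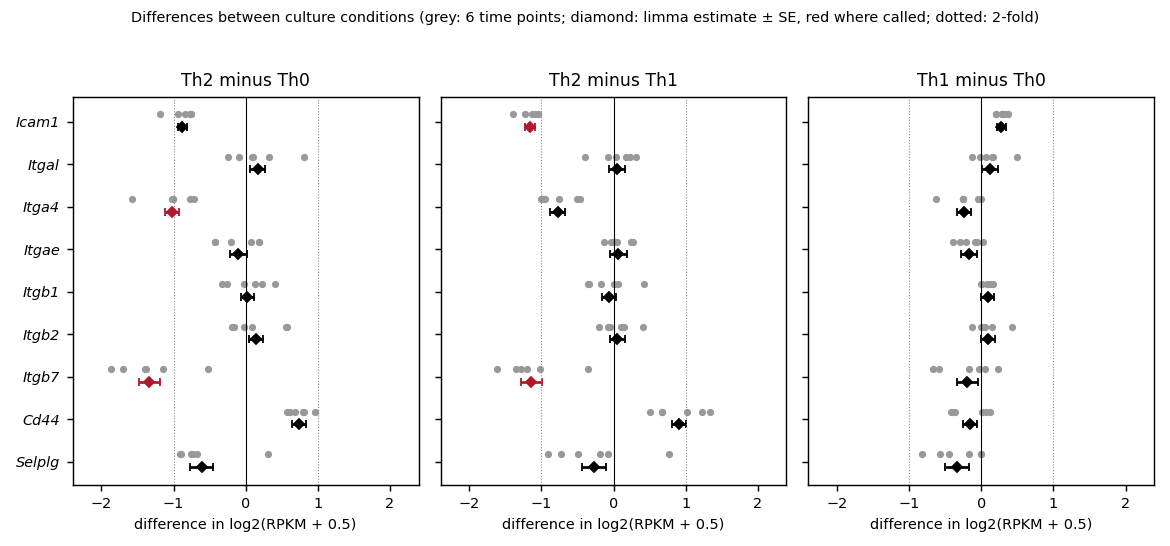
Differences in log2(RPKM + 0.5) between conditions (horizontal axes) for the 9 genes, with the 6 time points as grey points and the limma estimate with its standard error as a diamond, red where called. For Th2 minus Th0 and Th2 minus Th1, the 6 points of Icam1, Itga4 and Itgb7 lie below 0 and those of Cd44 above it, while Itgb1, Itgb2 and Itgal straddle 0.

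Icam1 showed the smallest spread around its difference. Th2 had 0.431 to 0.583 times the Icam1 level of Th0 and 0.373 to 0.481 times that of Th1 over the 6 time points. The log2 difference was -0.88 from Th0 (SE 0.067, limma adjusted p = 2.17e-07) and -1.16 from Th1 (SE 0.067, limma adjusted p = 1.63e-08). Th1 was above Th0 at 6 of 6 time points, by 1.15 to 1.30 times, a log2 difference of 0.28 (SE 0.067, limma adjusted p = 0.0403). Over the alternatives the limma adjusted p of this difference ran from 0.022 to 0.194. Of all genes tested, 5.09% were above Th0 in Th1 at every time point. Selplg was below Th0 in Th1 at 6 of 6 time points, as were 7.38% of all genes tested. At 20 and 24 h Selplg in Th1 had 0.995 and 0.997 times the Th0 level, with overlapping Poisson limits. Its log2 difference over the time points was -0.34, which did not pass (limma adjusted p = 0.318). The order Th1, Th0, Th2 of Icam1 was thus the same at each of the 6 time points.

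Itgb7 was lower in Th2 at each time point, with 0.269 to 0.693 times the level of Th0 and 0.322 to 0.778 times that of Th1. The ratio to Th0 was nearest to 1 at 4 h and lowest at 8 h, when Th0 had 79.1 RPKM, Th1 52.6 RPKM and Th2 21.3 RPKM. Its log2 difference was -1.33 from Th0 (SE 0.15, limma adjusted p = 1.02e-05) and -1.14 from Th1 (SE 0.15, limma adjusted p = 5.89e-05). Itga4 in Th2 had 0.329 to 0.597 times the level of Th0, a log2 difference of -1.02 (SE 0.099, limma adjusted p = 3.1e-06), and 0.487 to 0.716 times that of Th1, a difference of -0.78 (limma adjusted p = 5.36e-05). The difference from Th0 was close to 2-fold and fell just under it with a pseudocount of 1 RPKM, with median-of-ratios or upper-quartile scaling, without the 8 h time point and with only 12 to 24 h. These 3 genes were below Th0 and below Th1 at 6 of 6 time points, which held for 14.6% and 10.8% of all genes tested.

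Cd44 was higher in Th2 at each time point, by 1.49 to 1.97 times over Th0 and by 1.43 to 2.54 times over Th1, each time highest at 20 h. The log2 difference of Cd44 was 0.74 from Th0 (SE 0.099, limma adjusted p = 6.5e-05) and 0.90 from Th1 (SE 0.099, limma adjusted p = 1.08e-05). Of all genes tested, 9.04% were above Th0 and 6.99% above Th1 at 6 of 6 time points. With only 12 to 24 h the difference of Cd44 from Th1 was 1.06, past 2-fold.

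The chains of LFA-1, Itgb1 and Itgae did not pass the test between conditions. For Th2 against Th0 the log2 difference was 0.17 for Itgal (SE 0.11), 0.14 for Itgb2 (SE 0.099), 0.02 for Itgb1 (SE 0.093) and -0.10 for Itgae (SE 0.11), with adjusted p-values of 0.25, 0.292, 0.869 and 0.533 (limma). A p that misses the threshold does not show that the conditions were alike, and single time points differed: Itgal at 8 h was 1.76 times and Itgb2 1.496 times higher in Th2 than in Th0, and Itgb1 at 24 h was 1.33 times higher.

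The difference between conditions was also tested for a linear change with time, where the p alone was used. Itgb2 was higher in Th2 than in Th0 at 4, 8 and 12 h and lower at 16, 20 and 24 h, a trend of -0.041 log2 units per h (SE 0.0099, limma adjusted p = 0.0321), 1 of 9 genes beside 5.15% of all genes tested. Selplg went from 1.70 times the Th1 level in Th2 at 4 h to 0.531 times at 24 h, a trend of -0.076 log2 units per h (SE 0.015, limma adjusted p = 0.0244), 1 of 9 beside 1.09% of all genes. Against Th1 the trend of Itgb2 was -0.028 (adjusted p = 0.174), and against Th0 that of Selplg -0.040 (limma adjusted p = 0.128). No gene of the set passed for Th1 against Th0 (limma), where 3 genes in all, 0.0279%, did. The limma adjusted p-values of Selplg and Cd44 there were 0.469 and 0.446. Without the 4 h time point, 4 of 9 genes passed for Th2 against Th0 in place of 1, and 28.5% of all genes tested in place of 5.15%. Without that time point Itgb1 had a trend of 0.047 (adjusted p = 0.00562, limma; 0.00562 to 0.951 over all alternatives), as Th2 went from 0.793 times Th0 at 8 h to 1.33 times at 24 h.

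Since α and β chains pair, the ratios of partner transcripts were calculated from the RPKM values of each library. At rest the RPKM values of Itga4 and Itgb1 were near equal, with a ratio of 1.01 and 1.0. In the cultures this ratio was between 0.116, in Th2 at 24 h, and 1.24, in Th0 at 4 h. The ratio of Itgb1 to Itgb7 was 0.48 and 0.454 at rest and was above both in every culture. It ran from 0.997 in Th1 at 16 h to 5.87 in Th2 at 24 h. By RPKM, the order of the β chains that can pair with α4 was thus turned in all cultures but Th1 at 16 h. Itga4 over Itgb7 was 0.486 and 0.455 at rest, 1.24 to 1.89 at 4 h and between 0.379 and 0.683 at 24 h. The ratio of Itgal to Itgb2 was 0.639 and 0.661 at rest and between 1.05 and 1.20 at 24 h. The lengths behind the RPKM values of these chains could not be recovered. Whether a ratio lies above or below 1 depends on them, while its change between libraries does not. These are ratios of transcripts, and no surface protein was measured here.

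**Figure D3:**
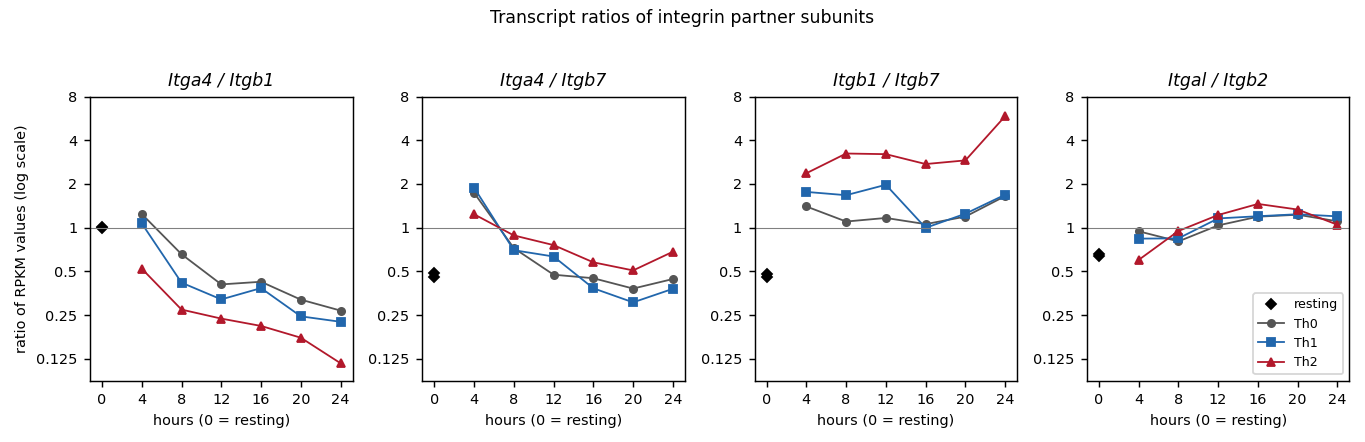
Ratio of RPKM values of integrin partner chains (vertical axis, log scale) against hours after activation, with resting libraries as diamonds at 0 and 1 library a point. Itga4 over Itgb1 falls to 0.116 in Th2 at 24 h, and Itgb1 over Itgb7 reaches 5.87 in the same library.

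After 16 h of stimulation and 0, 1, 2 and 4 h with actinomycin, levels are relative to the total of each library, so a gene that decays as fast as the average keeps its value. The median slope of all 10571 genes tested was 0.00 log2 units per h. Itgb7 had 21.5, 24.0, 23.4 and 35.4 RPKM, a slope of 0.17 log2 units per h (SE 0.06, limma adjusted p = 0.0277), the call among the 8 genes of the set tested, beside 20.9% of all genes. This call was lost without the 0 h library (slope 0.20, adjusted p = 0.223), the 1 h library (0.18, adjusted p = 0.102) or the 4 h library (0.06, adjusted p = 0.847), without the filter (adjusted p = 0.0944) and without the intensity trend (limma adjusted p = 0.0845). The alternatives gave Itgb7 limma adjusted p-values from 0.0012 to 0.847. An exact permutation test of the 4 times, which cannot go below 0.0833 (two-sided), gave 0.167 for Itgb7.

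Itgal had 152 RPKM in the first and 214 RPKM in the last library and Itga4 11.9 and 16.9 RPKM, with slopes of 0.12 (adjusted p = 0.109) and 0.14 (limma adjusted p = 0.126). Itgb1 had 67.9, 54.8, 65.9 and 43.2 RPKM (slope -0.14, limma adjusted p = 0.0584), Selplg 56.7, 65.7, 52.5 and 43.6 RPKM (slope -0.12, limma adjusted p = 0.124) and Cd44 50.1, 48.6, 40.3 and 37.9 RPKM (slope -0.11, limma adjusted p = 0.171). Itgb2 had 105 to 82.8 RPKM and Icam1 14.1 to 12.8 RPKM from first to last library, with slopes of -0.08 (adjusted p = 0.331) and -0.05 (limma adjusted p = 0.643). None of the 8 slopes other than that of Itgb7 passed. Itgae was under the filter, with 0.375, 0.694, 0.723 and 0.866 RPKM. Without the 2 h library, 5 of the 8 genes tested passed, beside 31.6% of all genes in place of 20.9%: Itgal, Itga4 and Itgb7 with a positive slope, Itgb1 and Selplg with a negative one.

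**Figure D4:**
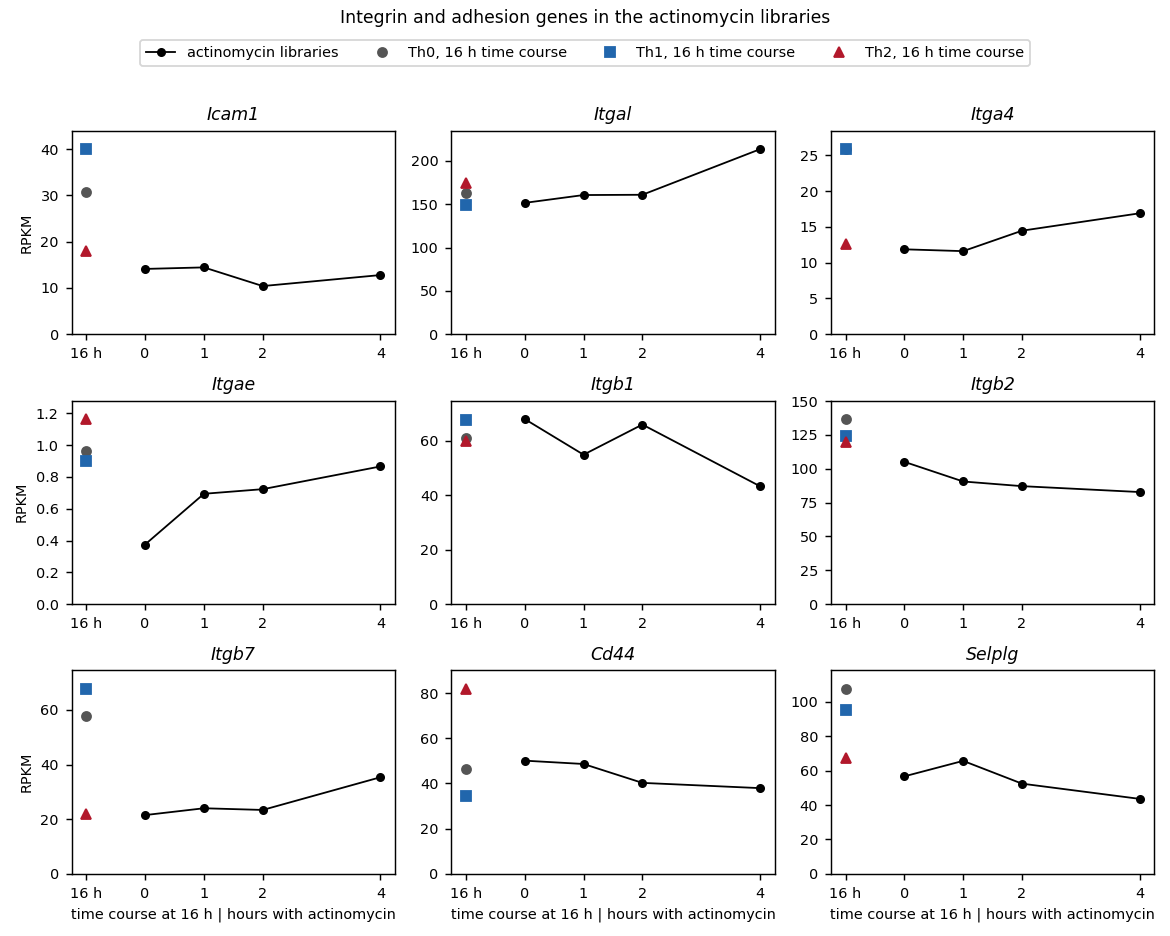
RPKM of the 9 genes (vertical axes, each from 0) in the libraries kept for 0, 1, 2 and 4 h with actinomycin (black), beside the 3 cultures of the time course at 16 h (coloured symbols at the left). Itgb7 rises from 21.5 to 35.4 RPKM, and the first library starts below all 3 cultures for Icam1, Itga4, Itgae, Itgb2, Itgb7 and Selplg.

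Titles of the actinomycin libraries lack the tag of the cultures, so a difference of preparation cannot be told apart from one of condition. The library at 0 h of actinomycin was set beside the 16 h cultures. It was below all 3 of them for Icam1 (14.1 RPKM, against 17.9 to 40.0 RPKM), Itga4 (11.9 RPKM, against 12.6 to 25.9 RPKM), Itgb7 (21.5 RPKM, against 21.8 to 67.7 RPKM), Selplg (56.7 RPKM, against 67.4 to 107.5 RPKM) and Itgb2 (105 RPKM, against 120 to 137 RPKM). These are 5 of the 8 genes whose mean was 1 RPKM or more, beside 39% of all genes so filtered, and Itgae was below as well. Itgb1 was above all 3 (67.9 RPKM, against 59.9 to 67.5 RPKM), as were 28.2% of the genes. On the log2 scale, Icam1, Itga4, Itgb2, Itgb7 and Selplg were nearest to Th2 at 16 h, the lowest of the 3 cultures for each. Itgal, Itgae and Itgb1 were nearest to Th1 and Cd44 to Th0. The share of all genes nearest to each culture was not calculated, so this does not give the skewing condition of the library. Cd44 in that library, with 50.1 RPKM, was between Th0 (46.5 RPKM) and Th2 (81.8 RPKM).

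For each gene of the set the genes with the most similar course over the 20 libraries of the time course were sought among 8470 genes whose mean was 5 RPKM or more, as a description. Icam1 ran closest to Cxcl10 (Pearson r = 0.945 on the log2 scale), Igtp (0.937) and Irgm1 (0.937), a chemokine and GTPases known as interferon-induced genes. Itga4 ran closest to Esyt2 (0.99) and Cdc25b (0.987), and Itgae to Galnt6 (0.967), Foxo3 (0.966) and Rhob (0.962). Itgb7 ran closest to Emp3 (0.96), Jun (0.958) and Flna (0.954), Itgb2 to St3gal1 (0.946), Siah2 (0.918) and Ly9 (0.899), and Selplg to Twf2 (0.956), Socs3 (0.933) and Ppm1h (0.92). Itgal ran closest to Abcc4 (0.972), Itgb1 to mt-Co1 (0.949) and Cd44 to Nudt6 (0.924). Over the 18 cultures alone, the first gene was again Cxcl10 for Icam1 (0.962, then Ly6c1 and Jun), Esyt2 for Itga4 and Twf2 for Selplg. It was another one for the other 6: Nubp1 for Itgal, Chd6 for Itgae, Rbbp8 for Itgb1, Slc29a1 for Itgb2, Lfng for Itgb7 and Rab8b for Cd44. The cultures share a pool of cells and a common course of activation, so high values are found for many pairs of genes. Within the set, the highest correlation was between Itga4 and Itgae (0.894) and the lowest between Icam1 and Cd44 (-0.797).

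Other adhesion genes were followed in 6 lists. Of 15 other integrin α genes, 9 were tested at 24 h against rest and 5 were called lower, with a median log2 change of -2.24. Beside this and the other lists at 24 h stand 12.7% of all genes tested called higher, 17.4% called lower and a median of -0.04. The largest falls were those of Itgad (33.5 and 36.8 RPKM at rest, 0.0456 to 0.175 RPKM at 24 h), Itga9 and Itga2b. Itgad, Itgam and Itgax pair with β2 in myeloid cells, and the macrophage markers fell in the same comparison. Markers of red cells (7 of 7 tested called lower), platelets (4 of 5), B cells (6 of 6) and NK cells (4 of 4) fell there too. The part of these other cells in the falls of the 6 lists was not tested. Itgav rose at 4 h, from 7.54 and 7.77 RPKM to between 15.2 and 18.6 RPKM (log2 change 1.06, SE 0.21, limma adjusted p = 0.000976). Itga6, the laminin-binding partner of β1, had 57.3 RPKM in both resting libraries and 192, 87.7 and 118 RPKM in Th0, Th1 and Th2 at 4 h, a change that did not pass (limma adjusted p = 0.0642), and it fell by 1.79 on the log2 scale from 4 to 24 h (limma adjusted p = 6.62e-07).

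Of 5 other β genes, 3 were tested at 24 h and Itgb5 was called lower. Itgb3, the β chain of the vitronectin receptor and of the platelet integrin, was the β gene called between conditions. It had 26.4, 9.57 and 43.1 RPKM in Th0, Th1 and Th2 at 4 h and 8.7, 3.25 and 11.04 RPKM at 24 h. Its log2 difference was -1.77 for Th1 against Th0 (SE 0.20, limma adjusted p = 0.000117) and 1.52 for Th2 against Th1 (SE 0.20, limma adjusted p = 7.89e-05). The 6 platelet markers, which include Itgb3 and Itga2b, summed to 57.3 to 60.1 RPKM at rest, 33.7 to 83.1 RPKM at 4 h and 5.91 to 15.0 RPKM at 24 h, and their part in the difference was not tested.

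Of 16 ligands and partners, 10 were tested at 24 h (all genes: 12.7% higher, 17.4% lower), with 1 called higher (Alcam, log2 change 2.14, SE 0.29, limma adjusted p = 9.69e-06) and 3 lower. Vcam1, the ligand of VLA-4 and also a marker of splenic macrophages, fell from 94.7 and 92.7 RPKM at rest to between 2.60 and 3.86 RPKM at 4 h (log2 change -4.67, limma adjusted p = 4.95e-09). Pecam1 and Icam4 were the other genes called lower, and markers of other cells, red cells among them, fell in the same comparison. Icam2, the other ligand of LFA-1 on leukocytes, had 56.6 and 52.6 RPKM at rest and 24.6 to 33.9 RPKM at 24 h, a change of -0.86 (limma adjusted p = 0.000871) under 2-fold. Madcam1 was between 0 and 0.418 RPKM in all libraries and Cdh1 between 0.0482 and 1.89 RPKM. Pecam1 was lower in Th2 than in Th0 (log2 difference -1.38, SE 0.10, limma adjusted p = 1.38e-07).

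Of 12 selectins and genes of selectin ligand synthesis, 8 were tested at 24 h (all genes: 12.7% higher, 17.4% lower), with 1 called higher (Tpst1) and 3 lower (Cd24a, St3gal6 and Gcnt1). Gcnt1, a branching enzyme in the synthesis of selectin ligands, fell from 8.05 and 8.8 RPKM at rest to 0.518 to 0.859 RPKM at 24 h (log2 change -2.98, limma adjusted p = 5.57e-09). Fut7, which adds the fucose that selectins recognise, was between 0.178 and 2.93 RPKM.

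Of 28 genes of integrin activation and linkage to actin, 26 were tested at 24 h, with none called higher and 9 lower (17.4% of all genes), a median of -0.77 beside -0.04 over all genes. Rasgrp2, an activator of Rap1 upstream of integrin activation, fell from 249 and 240 RPKM at rest to 8.504 to 19.0 RPKM at 24 h (log2 change -4.11, SE 0.51, limma adjusted p = 4.09e-06) and was lower in Th2 than in Th0 (-1.15, limma adjusted p = 5.72e-06). Parvb and Skap1 were the next largest falls. Of 11 CD44 linkers, sheddases and hyaluronan genes, 8 were tested, with none called higher and 2 lower at 24 h, Hmmr and Ezr, which links CD44 to actin.

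**Figure D5:**
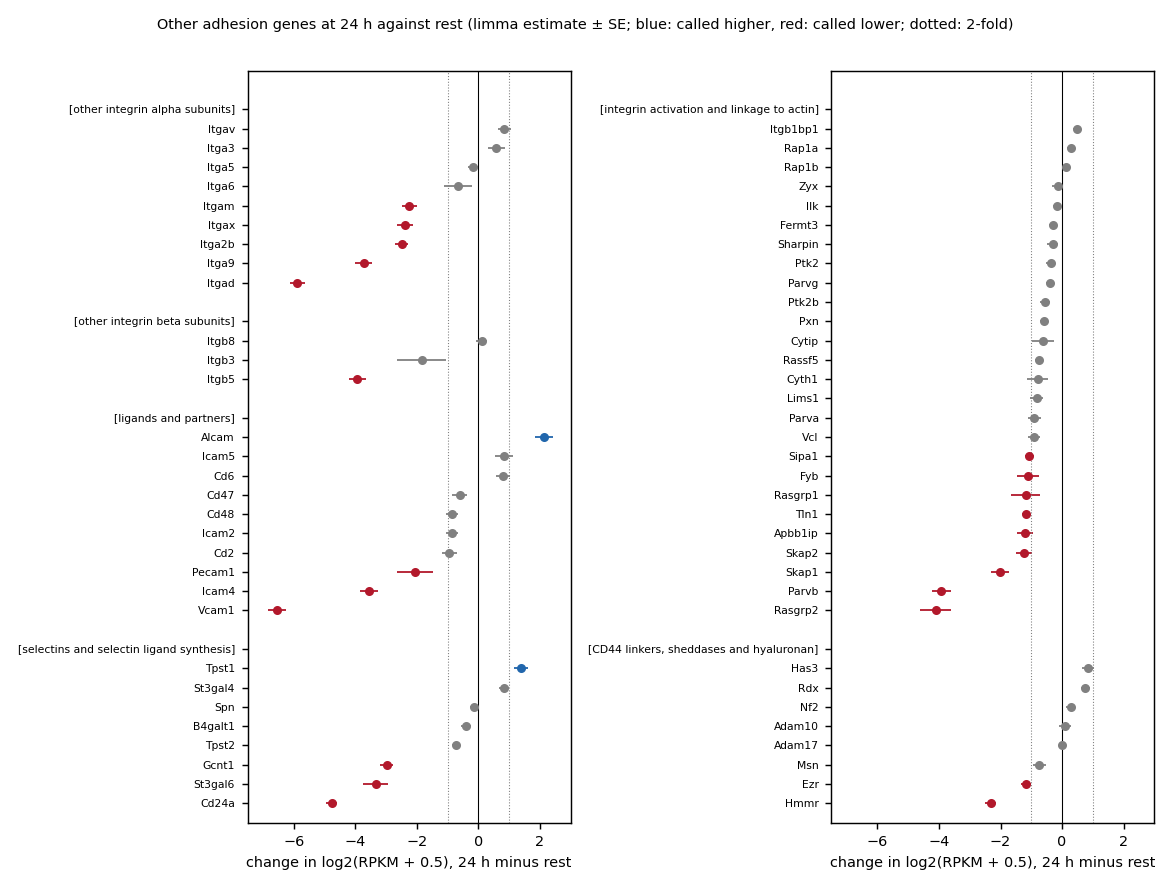
Change in log2(RPKM + 0.5) at 24 h against rest (horizontal axis) with its standard error for the tested genes of the 6 adhesion lists, blue where called higher and red where called lower. Called genes are mostly on the lower side, and Alcam and Tpst1 are the ones called higher.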

How the data were processed

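The 24 RNA libraries of CD4+ T cells were grouped by their titles. Values deposited by the authors are RPKM for each gene symbol; the submitters' notes name BWA and GRCm38, and aligner settings are not given in the sources used here. One entry had no gene name and was left out. Depth was recovered from 2778 genes with a single annotated transcript: in 1711 (61.6%), the values of all libraries were within 0.01 of whole reads. Of the 9 genes, 2 had whole reads for a length between 150 and 20000 bases (Icam1, 2540; Selplg, 2604). Among the genes with whole reads, 2 reads were more frequent (2916 values) than 1 (1735), so intervals were calculated on pairs.

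The tests used limma (3.58.1, R 4.3.3). Values entered as log2(RPKM + 0.5), the variance prior followed the intensity, and genes entered where their mean over the fitted libraries was 1 RPKM or more. A call needed an adjusted p under 0.05 and 2-fold (time trends and actinomycin slopes: the p alone). The fits were run on simulated data with independent noise and known changes, which cannot show how calls behave for cultures that share a pool. Python 3.11.15 with numpy 2.4.6, pandas 2.3.3, scipy 1.17.1 and matplotlib 3.10.9 was used. The genes and lists were chosen with earlier results of these data known. All 9 genes were described, other genes only from the 6 adhesion lists (per list the 3 largest rises and falls called, and the partners Icam2, Vcam1, Madcam1, Cdh1, Fut7 and Gcnt1), with up to 3 nearest genes of each. Some genes are not reported here. Alternatives were other pseudocounts (0.1 and 1), filters (none, 5 RPKM), scalings, no trend, subsets of libraries and each library or group left out.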

Additional observations from a re-analysis of the deposited data

Results flagged for a closer look

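A change with time was tested on the difference between conditions itself. For Th2 against Th0, 1 of the 9 genes passed, beside 5.15% of all genes tested. For Th2 against Th1 it was 1 of 9, beside 1.09%. The difference of Itgb2 between Th2 and Th0 changed by -0.0406 log2 units per h (adjusted p = 0.0321, limma), from 1.48 times the Th0 level at 4 h to 0.895 times at 24 h. The adjusted p was 0.0272 to 0.111 over the alternatives (limma). The difference of Selplg between Th2 and Th1 changed by -0.0758 log2 units per h (adjusted p = 0.0244, limma), from 1.70 times to 0.531 times, with an adjusted p of 0.00393 to 0.161 over the alternatives (limma). Each of these calls was lost under 7 of 14 alternatives. Each time point had 1 library a condition.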

How the results depend on the processing

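No paired analysis was possible because only the resting group has numbered replicates, and the time point is already a factor between conditions. Of 1846 values of single genes of the set under alternatives, 1729 kept direction and side of the threshold, 43 lost and 47 gained the threshold and 27 changed sign, none of these past it.

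Counts of the 9 genes changed as follows. With the adjusted p alone, 5 were called at 8, 16 and 20 h and 6 at 24 h against rest (of all genes 50.4%, 59.7%, 63.7% and 65.2%), 5 between Th2 and Th0 (29.6%), 4 between Th2 and Th1 (12.2%), 1 between Th1 and Th0 (2.27%) and 7 for 24 h against 4 h (69.9%). With quantile normalization 5 were called at 20 and at 24 h (30.2% and 31.7% of all genes). At 4 h, leaving out a condition gave 2 to 4 (9.8% to 11.7%). For Th2 against Th0, 1 was called with a pseudocount of 1 RPKM (1.62%) and with median-of-ratios (1.85%) or upper-quartile scaling (1.94%). It was also 1 with only 12 to 24 h (1.97%) and without 8 h (1.6%). Over time points left out, 1 to 2 were called (1.6% to 2.34%). The trend of Th2 against Th0 gave 0 without the filter (1.46%) or the intensity trend (4.08%). Without a time point it gave 0 to 4 (0.78% to 28.5%). For Th2 against Th1 the trend gave 0 without the filter (0.385%), with median-of-ratios scaling (0.84%) or quantile normalization (0.987%). Leaving out a time point gave 0 to 2 there (0.204% to 4.78%). That of Th1 against Th0 gave 0 to 1 (0% to 0.423%). The actinomycin slope gave 0 without the filter (4.25%) or the intensity trend (16.1%) and 0 to 5 without a library (5.12% to 31.6%).

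Signs turned for log2 differences near 0. Against rest, Itgal was -0.27, -0.16 and -0.17 at 12, 16 and 20 h with quantile normalization, -0.019 and -0.058 at 12 h without resting replicate 1 and without Th2, and 0.029 at 24 h with median-of-ratios scaling. Cd44 at 16 h was between -0.16 (without Th2) and 0.46 over conditions left out, and Selplg at 4 h between -0.35 and 0.029 (without Th1). For Th2 against Th0, Itgb1 was -0.023 with quantile normalization, -0.017 without 4 h and -0.053 without 24 h, and Itgb2 -0.071 with only 12 to 24 h. For Th2 against Th1, leaving out a time point gave Itgal -0.0057 (without 8 h) to 0.14 and Itgb2 -0.016 (without 4 h) to 0.11, and Itgb2 was -0.057 with only 12 to 24 h. For Th1 against Th0, Itgb2 was -0.014 with only 12 to 24 h. Between 24 and 4 h, Itgb1 was -0.16 with quantile normalization and -0.077 without Th2. Trends per h turned for Th2 against Th0 without 4 h (Itgb7 0.038, range from -0.032, and Selplg 0.00019, range from -0.056), for Th2 against Th1 without 24 h (Itgal 0.0031, range from -0.039), and for Th1 against Th0 in Icam1 (0.0012 without 8 h, 0.00496 without 24 h, range from -0.0062), Itgal (0.0054 without 8 h), Itga4 (-0.0011 with median-of-ratios scaling, -0.0089 without 8 h, range to 0.019) and Itgb1 (0.00092 without 24 h, range from -0.0062). The cause was not tested.

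Over all genes, the median change at 24 h against rest was -0.036, and 0.13 with quantile normalization and 0.10 with median-of-ratios scaling. Of the genes called, 1389 of 3280 were higher, 1864 of 3450 with quantile normalization and 1721 of 3326 with median-of-ratios scaling. At 4 h, 284 of 1152 were higher, and 551 of 1267 with quantile normalization. With 1 library a condition and time point, a difference at a single time point has no replicate.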
